A study of Mus musculus with 16 samples.

Results

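Pparg and 6 genes for proteins that bring fatty acids into cells or bind them there (Cd36, Vldlr, Fabp2, Fabp4, Slc27a4 and Slc27a5) were followed in mouse liver. The 7 genes were chosen by name, with no threshold on their values but with earlier results of these data known. The count table held 23420 gene symbols, of which 18203 had a count in at least 1 library. All 7 passed the filter on low counts in each of the 5 comparisons. Livers came from male C57BL/6J wild-type mice. FEN-HFD mice were fed a high-fat diet, with 45% of energy from fat, that contained 0.04% fenretinide (FEN), a synthetic retinoid, and HFD mice were fed the high-fat diet without it. Each diet was given for 20 weeks or for 7 days to 4 mice, which makes 16 libraries. The 20-week and 7-day mice were different animals, so duration, age and cohort cannot be told apart, and livers of lean mice were not analysed here.

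PPARG is a nuclear receptor that binds DNA together with a retinoid X receptor and turns on genes of lipid uptake and storage. It is abundant in fat cells and low in healthy liver, and it is known to increase in fatty liver of mice. CD36 is a plasma membrane protein that takes up long-chain fatty acids. SLC27A4 and SLC27A5 (FATP4 and FATP5) are fatty acid transport proteins that also attach coenzyme A to their substrates. SLC27A5 is made mainly in liver, where bile acids are also among its substrates. FABP2, best known from the intestine, and FABP4, best known from fat cells, macrophages and capillary endothelium, carry fatty acids inside the cell. VLDLR is a receptor that binds triglyceride-rich lipoproteins at the cell surface. Cd36 and Fabp4 are well-known PPARG target genes.

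In GRCm38 (mm10) with GENCODE M21, Pparg lies at chr6:115360951-115490399 on the plus strand and Cd36 at chr5:17781690-17888801 on the minus strand. Vldlr lies at chr19:27216484-27254231 (plus), Fabp2 at chr3:122895072-122899506 (plus) and Fabp4 at chr3:10204088-10208576 (minus). Slc27a4 lies at chr2:29802634-29817522 (plus) and Slc27a5 at chr7:12988346-12998192 (minus). No exon of these 7 genes shared a base with an exon of another annotated gene (0 overlapping genes).

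The 250 bases before the RefSeq start of Cd36 are shown because Cd36 was the member with an adjusted p under 0.05 between the diets. They lie at chr5:17835897-17836146 on the minus strand and are printed 5′ to 3′, in capitals where they matched the repeat that PPARG and the retinoid X receptor bind together.
Cd36 promoter: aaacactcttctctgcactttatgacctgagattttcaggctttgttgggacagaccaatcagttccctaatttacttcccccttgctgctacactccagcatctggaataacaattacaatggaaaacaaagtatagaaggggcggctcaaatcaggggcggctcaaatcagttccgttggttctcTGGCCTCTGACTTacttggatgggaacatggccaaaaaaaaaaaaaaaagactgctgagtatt
The search was for AGGTCANAGGTCA (AGGTCA repeated with 1 base between) and for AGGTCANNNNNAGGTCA (5 bases between, the repeat bound by retinoic acid receptors), on both strands, with up to 2 mismatches in the 12 fixed letters. The Cd36 window held 1 match to the first, on the opposite strand and with 2 mismatches, starting 63 bases before the RefSeq start. The nearest GENCODE start lies 179 bases away from the RefSeq one. The window lies inside the annotated span of Cd36, which reaches chr5:17888801 on the side of its first exon. Use of this start in liver was not tested. RefSeq promoters were found for 5 of the 7 genes, as 8 windows, and the other 7 windows held neither repeat. Over all 32851 promoter windows of this length, 3.24% held the first repeat and 2.33% the second. A match is a stretch of letters and no measure of binding.

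Total counts ran from 19218230 to 32546829 per library. Cyp26a1, a retinoic acid-degrading enzyme that retinoids induce, was at 287 to 318 CPM (read counts scaled to library size by TMM over all 16 libraries) in FEN-HFD livers and 3.81 to 5.02 CPM in HFD livers at 20 weeks. At 7 days it was at 213 to 272 CPM in FEN-HFD and 1.10 to 8.68 CPM in HFD, so the labels of all 16 libraries matched this gene. Defining hepatocyte genes were present in all 16 libraries (10 of 10 markers). A pair of the 20-week libraries stood apart. In FEN-HFD mouse 29, the ribosomal precursor Rn45s took 53.1% of counts, against 0.466% to 1.46% in the other 15 libraries. In HFD mouse 45, transcripts of fat cells and skeletal muscle were present: Adipoq was at 3.19 CPM, against at most 0.121 CPM in the other 15 libraries, and Acta1 at 274 CPM, against at most 0.713 CPM. Results for some of the 7 genes are given below without these mice, and sums of cell type markers include them.

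Compared per kilobase of exon, the genes spanned a wide range of levels. Slc27a5 was the highest in each of the 4 groups, with 500.2 ± 28.0 CPM per kb in FEN-HFD and 461 ± 83.8 CPM per kb in HFD at 20 weeks (SD, n = 4). Fabp2 came next, then Cd36, and the ranges of these 3 genes did not overlap in any group. Fabp4, Slc27a4 and Pparg followed. Their order changed between groups, and Slc27a4 and Pparg overlapped in 3 of the 4, all but HFD at 7 days. Vldlr was the lowest in every group, at 0.417 ± 0.207 CPM per kb in FEN-HFD and 1.21 ± 0.420 CPM per kb in HFD at 20 weeks. Its level rests on 49 to 70 counts per library in FEN-HFD and 162 to 420 in HFD.

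**Figure D1:**
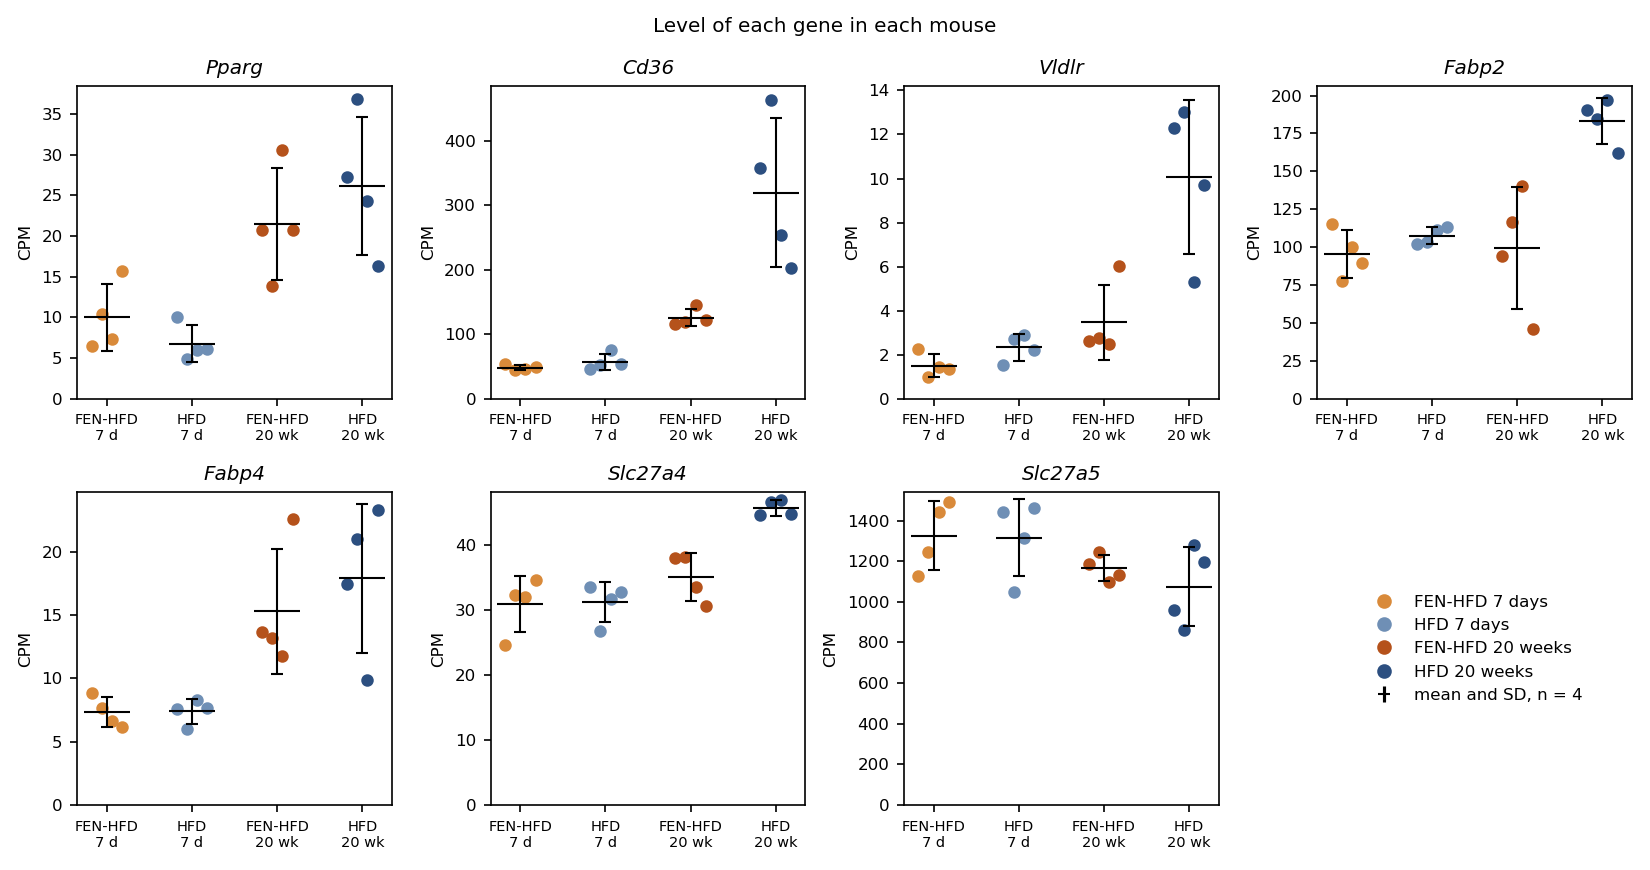
Level of each gene in CPM on the y axis, starting at 0, for the 4 mice of each group on the x axis. Points are mice, and black bars are the mean and SD. Cd36 at 20 weeks lies between 116 and 145 CPM in FEN-HFD and between 203 and 464 CPM in HFD. Slc27a5 overlaps in all groups.

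The first question was how fenretinide changed these genes after 20 weeks of diet. Cd36 fell, by 1.35 on the log2 scale, and it was the 1 member of 7 that passed an adjusted p of 0.05 (edgeR's quasi-likelihood test, Benjamini-Hochberg over 13010 genes). Over all genes tested, 1.86% passed, 100 of them higher and 142 lower in FEN-HFD. The other 6 genes did not pass. Vldlr, Slc27a4 and Fabp2 had lower means in FEN-HFD, with unadjusted p under 0.05, whereas Pparg, Fabp4 and Slc27a5 did not. Over all genes 18.5% had an unadjusted p under 0.05 in either direction. Cd36, Fabp2 and Slc27a4 were lower in FEN-HFD with no overlap between the groups, as were 6.8% of all genes tested. The median log2 fold change was -0.38 over the 7 genes and 0.01 over all genes tested.

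Cd36 was at 116, 119, 145 and 122 CPM in FEN-HFD mice 21, 22, 24 and 29. It was at 358, 464, 254 and 203 CPM in HFD mice 25, 28, 33 and 45. Every FEN-HFD mouse was below every HFD mouse, and the HFD mice varied more among themselves. Means were 126 ± 13.5 CPM in FEN-HFD and 320 ± 116 CPM in HFD (SD, n = 4), a fold of 0.393 with a log2 fold change of -1.35 ± 0.23 (SE; adjusted p = 0.0255). The call was lost when mouse 21, 22, 24 or 29 of FEN-HFD, or mouse 25 of HFD, was left out. The highest adjusted p was then 0.0948, and over all 8 mice left out in turn the log2 fold change stayed between -1.51 and -1.11. It held without mouse 45 (adjusted p = 0.0097) and without mice 29 and 45 together (adjusted p = 0.0085).

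Vldlr was at 2.62, 2.74, 2.46 and 6.03 CPM in FEN-HFD mice 21, 22, 24 and 29. It was at 12.3, 13.0, 5.30 and 9.70 CPM in HFD mice 25, 28, 33 and 45. FEN-HFD mice 21, 22 and 24 were below all HFD mice, and mouse 29 was above the lowest HFD mouse, so the groups overlapped. The log2 fold change was -1.60 ± 0.36 and did not pass (adjusted p = 0.0595). Without mouse 29 it was -1.94 and passed (adjusted p = 0.0177), and without HFD mouse 33 it was -1.81 and passed (adjusted p = 0.0360).

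Slc27a4 was at 37.96, 38.2, 33.5 and 30.7 CPM in FEN-HFD mice 21, 22, 24 and 29. It was at 44.6, 46.7, 46.9 and 44.7 CPM in HFD mice 25, 28, 33 and 45. The groups did not overlap and the HFD mice were close to each other. The log2 fold change was -0.38 ± 0.09 (adjusted p = 0.0585).

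Fabp2 was at 94.2, 117, 140 and 45.9 CPM in FEN-HFD mice 21, 22, 24 and 29. It was at 190, 184, 197 and 162 CPM in HFD mice 25, 28, 33 and 45. The groups did not overlap, and mouse 29 was the lowest of the 16 mice. The log2 fold change was -0.88 ± 0.28 (adjusted p = 0.144). Without mouse 29, whose library holds the Rn45s excess, it was -0.65 and passed (adjusted p = 0.0349). The part of that excess in these values was not tested.

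Pparg was at 20.8, 13.8, 30.6 and 20.7 CPM in FEN-HFD mice 21, 22, 24 and 29. It was at 27.2, 36.8, 24.3 and 16.2 CPM in HFD mice 25, 28, 33 and 45. The groups overlapped, and the log2 fold change of -0.29 had a 95% interval of -0.93 to 0.35 (adjusted p = 0.628). Fabp4 was at 13.6, 13.2, 11.8 and 22.6 CPM in FEN-HFD mice 21, 22, 24 and 29. It was at 17.4, 21.0, 9.88 and 23.3 CPM in HFD mice 25, 28, 33 and 45, with a log2 fold change of -0.25 (95% interval -0.90 to 0.40; adjusted p = 0.692). Slc27a5 averaged 1165 ± 65.2 CPM in FEN-HFD and 1074 ± 195 CPM in HFD (SD, n = 4), with a log2 fold change of 0.12 (95% interval -0.20 to 0.44; adjusted p = 0.700). These intervals leave room for a change in either direction.

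DESeq2 and limma-voom (run with a quality weight for each library) each called 4 members lower in FEN-HFD, namely Cd36, Vldlr, Fabp2 and Slc27a4. Their adjusted p for these 4 genes ran from 2.3e-06 to 0.0289 in DESeq2 and from 0.0050 to 0.0348 in limma-voom. An edgeR fit of all 16 libraries also called 4, the same genes. Bulk RNA cannot tell fewer cells of a type from less RNA per cell. The 10 hepatocyte markers held 0 calls, with 2 higher and 2 lower at an unadjusted p under 0.05 (edgeR). Alb averaged 34665 CPM in FEN-HFD and 51060 CPM in HFD, whereas Ahsg averaged 6702 and 4834 CPM. Of 12 hepatic stellate cell markers 1 was called, higher in FEN-HFD, and 4 were lower at an unadjusted p under 0.05 (edgeR). Among them, Lrat averaged 83.0 CPM in FEN-HFD and 49.3 CPM in HFD. The 12 endothelial markers held 0 calls, with summed levels of 425 to 604 CPM in FEN-HFD and 468 to 535 CPM in HFD. The 14 macrophage and Kupffer cell markers held 1 call, Marco, higher in FEN-HFD. Their summed levels were 593 to 1430 CPM in FEN-HFD and 489 to 566 CPM in HFD. Gpnmb, Trem2, Cd9 and Ccr2 had lower means in FEN-HFD, and the other markers of this list had higher ones. Gpnmb averaged 1.22 CPM in FEN-HFD and 5.48 CPM in HFD, and Trem2 averaged 0.929 and 2.38 CPM. At an unadjusted p under 0.05 (edgeR) 6 were higher and 1 was lower, against 18.5% of all genes in either direction. Of 5 tested adipocyte markers, out of 12 listed, 1 was called, Cfd, higher in FEN-HFD. Adipoq and Plin1 had no count in the 4 FEN-HFD libraries, and in HFD nearly all of their signal was in mouse 45. Adipoq was at 3.19 CPM in that mouse and at most 0.121 CPM in the other 15 libraries. Plin1 was at 2.47 CPM in mouse 45 and at most 0.0620 CPM in the others. Without Car3, which leads that list, its summed level was 88.1 to 184 CPM in FEN-HFD and 55.4 to 66.1 CPM in HFD. Without Car3 and Cfd the direction turned, and the other 10 markers summed to 32.7 to 41.4 CPM in FEN-HFD and 41.8 to 54.0 CPM in HFD. Most of that sum was Lipe and Cidea. Lipe averaged 32.0 CPM in FEN-HFD and 26.8 CPM in HFD. Cidea, which is also on the list of PPARG targets below, averaged 3.33 CPM in FEN-HFD and 15.7 CPM in HFD. The part of these cell types in the values of Pparg, Cd36 and Fabp4 was not tested.

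The same comparison at 7 days asked whether the genes differed soon after the diets began. None of the 7 passed (edgeR; 0 by DESeq2 and 0 by limma-voom), and 1 had an unadjusted p under 0.05, as did 5.08% of all genes. Over all genes 0.0988% passed, all of them higher in FEN-HFD. Cd36 was at 53.1, 44.8, 45.7 and 48.9 CPM in FEN-HFD mice 61, 62, 65 and 66. It was at 45.8, 51.6, 74.7 and 54.3 CPM in HFD mice 142, 143, 144 and 146. The groups overlapped, with a log2 fold change of -0.23 ± 0.14. Vldlr averaged 1.49 ± 0.529 CPM in FEN-HFD and 2.33 ± 0.610 CPM in HFD (SD, n = 4), with a log2 fold change of -0.63 ± 0.28 (unadjusted p = 0.0462 and adjusted p = 0.975 by edgeR). Its counts were 26 to 78 per library in FEN-HFD and 49 to 90 in HFD. Pparg averaged 9.99 ± 4.14 CPM in FEN-HFD and 6.72 ± 2.27 CPM in HFD, a log2 fold change of 0.57 with a 95% interval of -0.13 to 1.27. For Fabp2, Fabp4, Slc27a4 and Slc27a5 the log2 fold changes lay between -0.17 and 0.01.

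Whether the effect at 20 weeks differed from that at 7 days was tested with all 16 libraries. No member passed by edgeR, and 0.0299% of all genes did. For 3 members, Cd36, Fabp2 and Slc27a4, the unadjusted p was under 0.05, each with a more negative fold change at 20 weeks than at 7 days. Over all genes 8.68% had an unadjusted p under 0.05 in either direction. For Cd36 the difference was -1.11 ± 0.29 on the log2 scale (unadjusted p = 0.00143, adjusted p = 0.209 by edgeR), with an adjusted p of 0.0277 by DESeq2 and 0.0408 by limma-voom. For Fabp2 it was -0.71 (95% interval -1.39 to -0.03) and for Slc27a4 -0.36 (95% interval -0.68 to -0.05). For Pparg it was -0.85, with an interval that included 0 (-1.83 to 0.13).

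**Figure D2:**
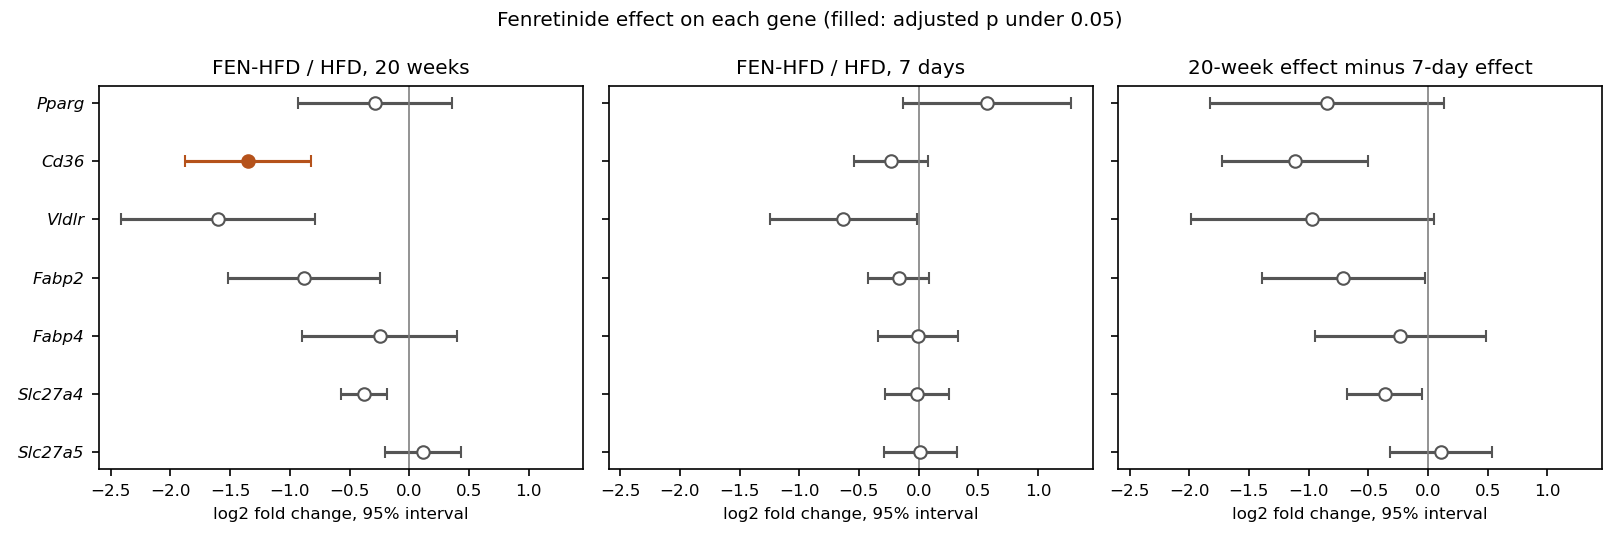
Log2 fold change on the x axis with its 95% interval for each gene on the y axis, for FEN-HFD over HFD at 20 weeks, for the same at 7 days, and for the 20-week effect minus the 7-day effect. Filled points passed an adjusted p of 0.05. Cd36 at 20 weeks (-1.35) is the only filled point.

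Duration of the diet separated the genes more widely. In HFD livers, 6 of the 7 genes were higher at 20 weeks than at 7 days, all but Slc27a5, and none was lower (edgeR over 13255 genes). Over all genes 7.51% passed, 634 higher and 362 lower. The 20-week HFD mice are the same animals that served as controls above, so these values and the 20-week effect of fenretinide share them. Cd36 averaged 320 ± 116 CPM at 20 weeks and 56.6 ± 12.6 CPM at 7 days (SD, n = 4), with a log2 fold change of 2.49 ± 0.28 (adjusted p = 0.00228). Vldlr averaged 10.1 ± 3.49 CPM at 20 weeks and 2.33 ± 0.610 CPM at 7 days (log2 fold change 2.10 ± 0.31, adjusted p = 0.00619). Every 20-week HFD mouse was above every 7-day HFD mouse for these 6 genes, as was the case for 9.63% of all genes tested.

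Pparg was at 27.2, 36.8, 24.3 and 16.2 CPM in HFD mice at 20 weeks and at 10.03, 4.84, 5.93 and 6.09 CPM at 7 days, with a log2 fold change of 1.95 ± 0.29 (adjusted p = 0.00774). Fabp4 was at 17.4, 21.0, 9.88 and 23.3 CPM at 20 weeks and at 7.59, 5.98, 8.29 and 7.69 CPM at 7 days (log2 fold change 1.26 ± 0.24, adjusted p = 0.0168). Fabp4 and Pparg are also fat cell genes, and mouse 45 carried fat cell transcripts. Without mouse 45 the log2 fold change was 2.12 for Pparg (adjusted p = 0.0028) and 1.12 for Fabp4 (adjusted p = 0.0289). Fabp4 lost its call without 7-day HFD mouse 142 (adjusted p = 0.0511). Fabp2 was 0.76 ± 0.09 higher on the log2 scale (adjusted p = 0.00161) and Slc27a4 0.54 ± 0.08 (adjusted p = 0.00619). Slc27a5 had a log2 fold change of -0.31 (95% interval -0.65 to 0.04).

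Cell type markers also moved with duration in HFD livers. Of 10 hepatocyte markers, Apoa1, Cps1 and Ahsg were called lower at 20 weeks and none was called higher. Over all genes 2.73% were called lower and 4.78% higher. The list's median log2 fold change was -0.44. The 10 summed to 73392 to 87387 CPM at 20 weeks and 75188 to 96391 CPM at 7 days. Without Alb, which leads that list, they summed to 24080 to 33220 CPM at 20 weeks and 36222 to 47519 CPM at 7 days. Alb and Ttr had higher means at 20 weeks, and the other hepatocyte markers had lower ones. Alb averaged 51060 CPM at 20 weeks and 46405 CPM at 7 days, and Ttr averaged 6343 and 5619 CPM. Of 5 tested adipocyte markers, Cfd and Cidea were higher, at 6.05 to 24.3 CPM and 3.08 to 26.9 CPM at 20 weeks, and at 0.0645 to 1.35 CPM and at most 0.0627 CPM at 7 days. Adrb3, also tested, had a lower mean, 2.51 CPM at 20 weeks and 4.40 CPM at 7 days. No adipocyte marker was called lower, and 1 was lower at an unadjusted p under 0.05 (edgeR). Without Car3 the adipocyte markers summed to 55.4 to 66.1 CPM at 20 weeks and 21.3 to 33.5 CPM at 7 days. Without Car3 and Cfd they summed to 41.8 to 54.0 CPM and 20.2 to 33.4 CPM. Of these, Cidea averaged 15.7 CPM at 20 weeks and 0.0256 CPM at 7 days, and Lipe 26.8 and 22.3 CPM. Of 14 macrophage and Kupffer cell markers 1 was higher and 2 were lower, and of 12 endothelial markers 0 passed (edgeR), with 1 higher and 4 lower at an unadjusted p under 0.05. The part of these cell types in the 6 higher genes was not tested.

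In FEN-HFD livers, 2 of the 7 genes were higher at 20 weeks than at 7 days, and none was lower. Over all genes 1.18% passed. Cd36 averaged 126 ± 13.5 CPM at 20 weeks and 48.1 ± 3.76 CPM at 7 days (SD, n = 4), with a log2 fold change of 1.37 ± 0.10 (adjusted p = 0.000176). Fabp4 averaged 15.3 ± 4.92 CPM at 20 weeks and 7.31 ± 1.19 CPM at 7 days, with a log2 fold change of 1.03 ± 0.21 (adjusted p = 0.0451). The Fabp4 call was lost in 7 of 8 runs that left out a mouse, where the highest adjusted p was 0.162, and also with upper-quartile scaling, with a minimum of 10 counts in every library and in the fit of all 16 libraries. For Pparg the log2 fold change was 1.10 (adjusted p = 0.182), and for Vldlr it was 1.14 (adjusted p = 0.219). Both were called by DESeq2, which called 4 members (adjusted p = 0.0119 for Pparg and 0.0439 for Vldlr), and limma-voom called 3, with Vldlr (adjusted p = 0.0095) and without Pparg. Fabp2 had one of 0.05 (95% interval -0.59 to 0.69) and Slc27a4 of 0.18 (95% interval -0.09 to 0.45). The test of the difference of effects given above is also the test of whether the change with duration differed between the diets.

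**Figure D3:**
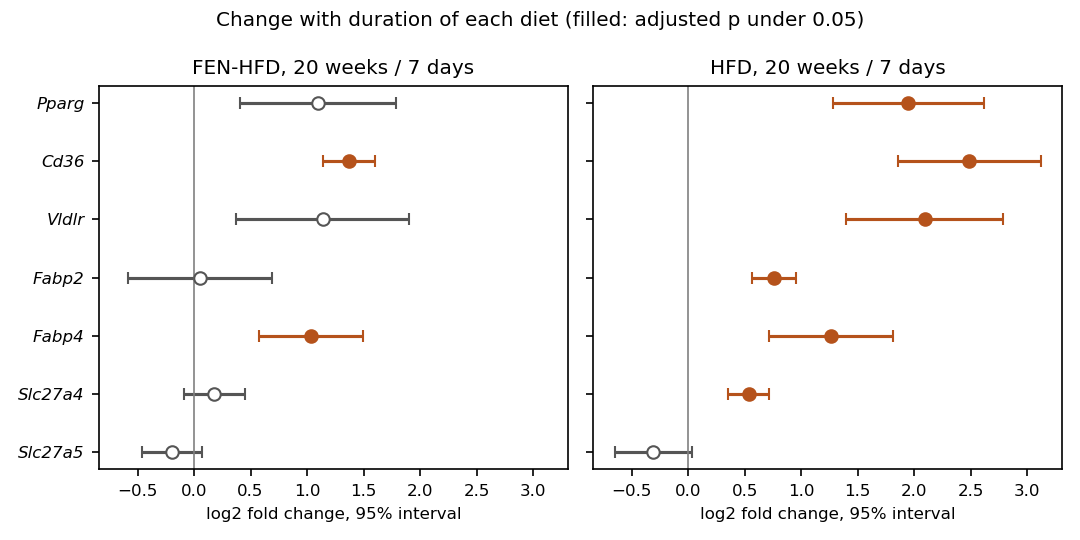
Log2 fold change on the x axis with its 95% interval for each gene on the y axis, 20 weeks over 7 days in FEN-HFD and in HFD livers. Filled points passed an adjusted p of 0.05, which were 2 genes in FEN-HFD and 6 in HFD.

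Related genes were read from 5 lists chosen with earlier results of these data known, and counts stand beside the share over all genes (1.86% at 20 weeks). Of 18 tested genes of fatty acid uptake and binding, Cd36 fell in FEN-HFD at 20 weeks and Fabp7, another binding protein, rose to 6.08 ± 1.69 CPM in FEN-HFD, against 2.65 ± 0.548 CPM in HFD (adjusted p = 0.0409). The list's median log2 fold change was -0.25, against 0.01 over all genes. Of 19 lipoprotein receptors and lipases, Apoa5, a regulator of triglyceride breakdown, was at 928 ± 119 CPM in FEN-HFD and 1639 ± 194 CPM in HFD (log2 fold change -0.82, adjusted p = 0.0191), and the list's median was -0.06. Of 25 PPARG family members, partners and coregulators none passed (edgeR), with 4 higher and 4 lower at an unadjusted p under 0.05, against 18.5% of all genes in either direction, and a median of 0.03. The retinoid X receptors Rxra and Rxrg had log2 fold changes of -0.05 and -0.52 (adjusted p = 0.870 and 0.102).

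Of 21 tested PPARG target genes of fat cells and fatty liver, Cd36, Plin2 and Mogat1 fell in FEN-HFD at 20 weeks, and Cfd rose. Plin2, which coats lipid droplets, averaged 524 ± 71.7 CPM in FEN-HFD and 1078 ± 311 CPM in HFD (log2 fold change -1.04 ± 0.20, adjusted p = 0.0335). Mogat1, a triglyceride synthesis enzyme, averaged 2.42 ± 0.720 CPM in FEN-HFD and 7.83 ± 2.76 CPM in HFD (log2 fold change -1.65 ± 0.29, adjusted p = 0.0244). Cfd, the fat cell protein adipsin, averaged 83.9 ± 42.1 CPM in FEN-HFD and 11.8 ± 8.41 CPM in HFD (log2 fold change 2.81 ± 0.52, adjusted p = 0.0380). The list's median was -0.13. In HFD livers 10 of these 21 genes were higher at 20 weeks than at 7 days and none was lower, while 4.78% of all genes were higher and 2.73% lower.

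Of 23 tested PPARA target genes, Fgf21, Acot2 and Crat fell in FEN-HFD at 20 weeks and none rose, with a median log2 fold change of -0.39. At an unadjusted p under 0.05 (edgeR) 15 were lower and 0 higher, against 18.5% of all genes in either direction. Crat, which exchanges acyl groups between carnitine and coenzyme A, averaged 42.6 ± 4.72 CPM in FEN-HFD and 102 ± 7.06 CPM in HFD (log2 fold change -1.26 ± 0.10, adjusted p = 0.00151). Fgf21, a liver hormone, averaged 0.583 ± 0.221 CPM in FEN-HFD and 5.78 ± 3.12 CPM in HFD (log2 fold change -3.25 ± 0.43, adjusted p = 0.0096). In HFD livers 15 of the 23 were higher at 20 weeks than at 7 days and none was lower. Over all genes 4.78% were higher and 2.73% lower. The paper also names Cd36, Vldlr and Mogat1 as PPARA targets, and these are not on this list. The PPARG and PPARA lists therefore do not separate the targets of these receptors. At 7 days none of the 5 lists held a called gene between the diets.

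**Figure D4:**
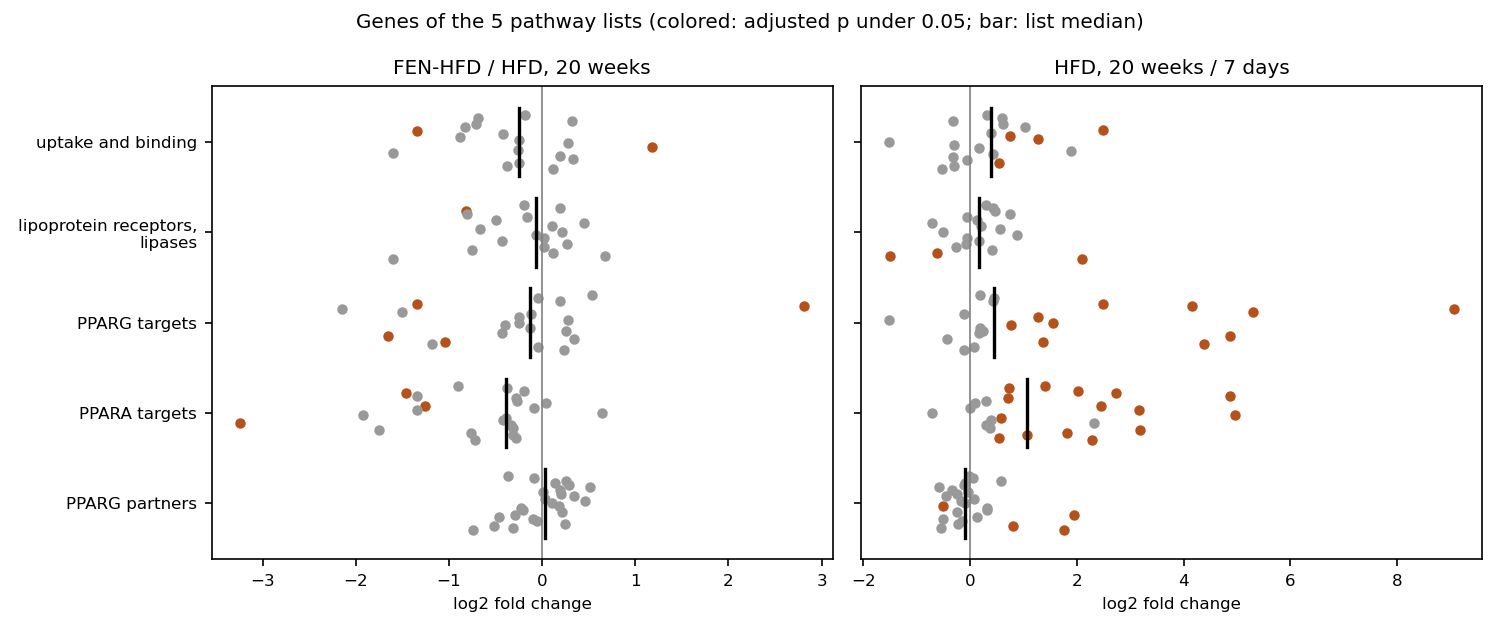
Log2 fold change on the x axis for the tested genes of each of the 5 lists on the y axis, with colored points at an adjusted p under 0.05 and a black bar at the list's median. In FEN-HFD over HFD at 20 weeks the PPARA targets have a median of -0.39, and in HFD at 20 weeks over 7 days the PPARG and PPARA targets hold 10 and 15 called genes, all higher.

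The genes with the most similar pattern over the 16 libraries were found by Pearson's r of log2 CPM among 9469 genes, as a description, since the points share group differences and depth. Cd36 was most like Gstm2 (r = 0.976, Spearman's rho = 0.959), followed by Crat (r = 0.971). After each group's mean was subtracted, r was 0.799 for Gstm2 and 0.440 for Crat. Vldlr was most like Mgst3 (r = 0.958; 0.733 within groups) and Myo1c (r = 0.956; 0.882 within groups). Pparg was most like Clstn3 (r = 0.925; 0.639 within groups) and Fabp2 like Abcb4 (r = 0.963; 0.915 within groups). Slc27a4 was most like Cd81 (r = 0.969; 0.903 within groups) and Slc27a5 like Hagh (r = 0.948; 0.963 within groups). Without mouse 29, 4 of the 5 nearest genes were shared for Pparg, Cd36 and Vldlr, all 5 for Slc27a5, 3 for Fabp2 and 2 for Slc27a4. Abcb4 was then no longer among the 5 nearest to Fabp2, and Tmem106b was first (r = 0.976 over 15 libraries).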

How the data were processed

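RNA was sequenced from liver with ribosomal RNA removed. As deposited by the authors, each value is an unnormalised count of reads for a gene symbol, from reads aligned with STAR 2.0 to mm10; the labels also name DESeq2 1.6. The counting program, annotation and strand setting are not given in the sources used here, and the labels and the paper's methods name different library kits. Counts were tested in R 4.3.3 with edgeR 4.0.16 (filterByExpr, TMM, glmQLFit and glmQLFTest, robust=TRUE; Benjamini-Hochberg, threshold 0.05), by 2 groups of 4 mice or, for the difference of effects, with all 16 libraries. CPM were scaled by TMM over all 16 libraries, and exon lengths are GENCODE M21. Alternatives by tool were DESeq2 1.42.0 and limma-voom (limma 3.58.1). Limma-voom was run with a quality weight for each library, so it differs from edgeR in more than the test. The other alternatives were RLE and upper-quartile factors, 2 other filters, all 16 libraries, robust=FALSE, Rn45s and Lars2 removed and each mouse left out. Leaving out mice 29 and 45 together was added after the data had been seen. Members, lists and rules were chosen with earlier results of these data known. Related genes named are those called between the diets, up to 4 per list, with Rxra, Rxrg and marker genes added after their values were seen. RefSeq promoters (GRCm38.p6) were used for sequence. Total counts ran from 19218230 to 32546829. P-values set differences of group means against the spread between mice within groups, and for duration they cannot cover age or cohort. The genes most similar in pattern to Fabp4 are not reported here.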

Additional observations from a re-analysis of the deposited data

Results flagged for a closer look

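Vldlr in FEN-HFD mouse 29 at 20 weeks was at 6.03 CPM, far from the other 3 FEN-HFD mice at 2.46 to 2.74 CPM. Its gap to the nearest mouse was 0.922 of the group's whole range. Of 28 groups of 4 mice examined over the 7 genes this was the 1 flagged, and chance flags about 1 in 20. The same library had 53.1% of its counts in Rn45s.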

How the results depend on the processing

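No paired analysis was possible because no mouse number was shared between groups. For FEN-HFD against HFD at 20 weeks, 1 member and 242 genes were called. DESeq2 called 4 members and 1001 genes, limma-voom 4 and 1128, the fit of all 16 libraries 4 and 661, and the fit without mice 29 and 45 called 3 and 595. Leaving out 1 mouse gave 0 to 2 members and 36 to 424 genes. At 7 days 13 genes were called, against 87 by DESeq2, 29 by limma-voom and 20 with no filter but 1 count, and 7 to 18 with a mouse left out. For the difference of effects 4 genes were called, against 115 genes and 1 member by DESeq2, 90 genes and 1 member by limma-voom, 11 with upper-quartile factors, 7 with robust=FALSE, 24 without mice 29 and 45, and 0 to 14 with 1 mouse left out. In HFD over time 996 genes were called, against 1740 by DESeq2 and 468 to 938 with a mouse left out, with 5 to 6 members. In FEN-HFD over time 2 members and 153 genes were called, against 4 and 414 by DESeq2 and 892 genes by limma-voom. Members there were 1 with upper-quartile factors, 1 with a minimum of 10 counts in every library and 1 in the fit of all 16 libraries, and with a mouse left out 1 to 2 members and 57 to 486 genes. The causes were not tested.

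Signs turned only where the value was near 0. With a mouse left out at 7 days, the log2 fold change ran from -0.11 to 0.063 for Fabp4, from -0.081 to 0.087 for Slc27a4 and from -0.082 to 0.088 for Slc27a5, and limma-voom gave 0.0097 for Slc27a4. For Fabp2 in FEN-HFD over time it ran from -0.16 to 0.28. Vldlr rests on as few as 26 counts in a library, which limits its precision. The planned permutation test and pseudocount for genes removed by the filter were not run, since all 7 passed it.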
